A study of Homo sapiens with 8 samples.

Results

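The 4 HOX clusters, HOXA, HOXB, HOXC and HOXD, were examined for EZH2 in a myeloma line with t(4;14). The members are the EZH2 ChIP-seq peaks of 4 deposited lists that share at least 1 base with 1 of 4 fixed hg18 intervals: HOXA at chr7:27095000-27215000, HOXB at chr17:43955000-44165000, HOXC at chr12:52610000-52740000 and HOXD at chr2:176655000-176770000. Of 19721 peaks in the 4 lists, 142 met this rule, namely 26 of 2972 peaks for NTKO run 1 and 49 of 10582 for NTKO run 2, and 29 of 651 peaks for TKO run 1 and 38 of 5516 for TKO run 2. The intervals were set by position alone, so neither the line nor the height of a peak was used to choose members.

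Both lines derive from KMS11, a myeloma cell line whose t(4;14) translocation joins the immunoglobulin heavy chain locus (IGH) to MMSET, a histone H3 lysine 36 dimethyltransferase also known as NSD2. NTKO cells have lost the wild-type allele, and the rearranged IGH-MMSET allele keeps MMSET high. In TKO cells the rearranged allele was inactivated by homologous recombination and the wild-type allele alone remains, giving low MMSET. EZH2 was precipitated from each line in 2 samples, called run 1 and run 2, and 4 input samples were used by the authors in peak calling but have no list of their own. The lists carry no expression value, so the MMSET level of either line was not checked here, and every comparison is between these 2 derivatives of 1 cell line.

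EZH2 is the catalytic subunit of Polycomb repressive complex 2, which methylates lysine 27 of histone H3 and keeps developmental genes silent. The HOX genes encode homeodomain transcription factors that set position along the body axis. They lie in 4 clusters, are ordered along each cluster by paralogue group with group 13 at the posterior end, and are classic Polycomb targets, often covered by broad EZH2 and H3K27me3 domains where they are silent. In blood cells, HOXA9 and HOXB4 are known for roles in progenitors and stem cells, HOXC4 is expressed in lymphoid cells, and HOXB13, HOXC13 and HOXD13 act mainly in posterior or appendage tissues.

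Distances below run from the posterior edge of each interval. In the order RefSeq gives, HOXC runs from that edge as HOXC13, HOXC12, HOXC11, HOXC10, HOXC9, HOXC8, HOXC6, HOXC5 and HOXC4. HOXB runs from HOXB13 through HOXB9 and HOXB8 down to HOXB2 and HOXB1. HOXA runs from HOXA13 to HOXA2 and HOXD from HOXD13 to HOXD1. The peaks are on hg18, and no hg18 gene annotation was used here, so peaks were placed along a cluster but not assigned to single genes.

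The study's primer list holds 1 pair for a HOX member, HOXC10, a posterior gene of the cluster with the most EZH2. It is shown because it marks a site inside that cluster, and each primer matched the GRCh37 genome exactly once.
HOXC10-F: tcgtaaaagggaacggtttcg
HOXC10-R: atccagggagccatttgtcc
The pair bounds 126 bases on GRCh37 at chr12:54377088-54377213, with the first primer on the plus strand and the second on the minus strand. In GENCODE this stretch ends 1717 bases before the start of the canonical HOXC10 transcript and lies in an exon of 1 transcript of the antisense lncRNA gene HOXC-AS3. GRCh37 and hg18 positions differ, so the site was not compared with the peaks.

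Promoters are shown for the outermost members of HOXC, the cluster with the largest share covered in NTKO run 2, and of HOXA, the cluster with the smallest. HOXC13 has no entry. Each sequence is the 250 bases before the RefSeq start on GRCh38.p14, written along the gene, with every CG dinucleotide (motif CG, the same on both strands) in capitals, since unmethylated CpG-rich promoters are common Polycomb sites.
HOXC4, chr12:54016638-54016887, plus strand: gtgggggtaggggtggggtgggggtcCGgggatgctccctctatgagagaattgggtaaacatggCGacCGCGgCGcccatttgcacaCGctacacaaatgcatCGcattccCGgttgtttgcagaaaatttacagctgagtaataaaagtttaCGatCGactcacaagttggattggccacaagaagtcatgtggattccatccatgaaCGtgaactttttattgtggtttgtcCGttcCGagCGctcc
HOXA13, chr7:27200092-27200341, minus strand: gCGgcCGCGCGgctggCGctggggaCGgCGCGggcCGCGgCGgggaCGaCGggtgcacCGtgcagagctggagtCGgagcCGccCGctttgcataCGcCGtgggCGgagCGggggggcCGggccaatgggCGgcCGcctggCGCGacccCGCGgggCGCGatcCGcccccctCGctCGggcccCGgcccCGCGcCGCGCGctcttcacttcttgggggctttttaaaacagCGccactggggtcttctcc
HOXA2, chr7:27102684-27102933, minus strand: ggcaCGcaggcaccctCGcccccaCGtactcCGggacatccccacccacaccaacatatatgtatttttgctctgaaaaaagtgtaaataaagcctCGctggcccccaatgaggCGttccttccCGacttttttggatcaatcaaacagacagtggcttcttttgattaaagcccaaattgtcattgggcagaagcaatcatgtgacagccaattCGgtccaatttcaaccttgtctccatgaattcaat
The HOXC4 window held 14 CG, a count met or exceeded by 44.7% of all 34943 RefSeq promoter windows of this length, and it is also the window listed for HOXC5. The HOXA13 window held 40, a count met or exceeded by 2.17%, and the HOXA2 window held 8, met or exceeded by 56.2%. Of the 3, HOXA13 was the richest in CG. Over the 20 members with an entry, the median was 19 in 16 HOXA windows and 22 in 8 HOXD windows, against 11 over all promoters. The HOXA windows came from 9 genes, with HOXA3 counted several times. The single HOXB window (HOXB1) held 7. HOXC also had a single window, so CG content cannot be compared between covered and uncovered clusters.

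EZH2 was unevenly spread over the 4 clusters, with most of the covered length at HOXC in every list. The HOXC interval, 130 kb long, was covered to 37.8% (run 1) and 45.1% (run 2) by the NTKO peaks and to 12.6% and 26.9% by the TKO peaks. The HOXB interval, 210 kb long, was covered to 3.20% and 4.47% by NTKO peaks and to 1.18% and 2.82% by TKO peaks. Per base of interval, HOXC was therefore covered 11.8 and 10.1 times as densely as HOXB in NTKO, and 10.6 and 9.55 times in TKO. This factor varied little between lists, which themselves differed widely in length. It depends on the intervals drawn, since 16 of 21 stretches of 10 kb at HOXB were empty in every list, against 2 of 13 at HOXC. The difference had the same sign in all 4 lists (exact sign-flip test over lists, two-sided p = 0.125, the smallest that 4 lists can give). This test was not among those planned. It sets against each other the 2 clusters with most coverage in these same lists, so its p-value lends no support. The 4 lists are 2 runs of 2 derivatives of 1 cell line and may not be independent.

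HOXA and HOXD, which like HOXC hold genes of paralogue groups 4, 9, 10, 11 and 13, were almost without peaks. HOXA held 1 peak, of 161 bp and 62 reads at its summit, in NTKO run 2 alone, and no peak in the other 3 lists. HOXD held 1 NTKO peak and 2 TKO peaks, all from run 2. The HOXD peak common to both run 2 lists lay 106 to 107 kb from the HOXD13 edge, towards HOXD1, with a height of 73 reads in NTKO and 94 reads in TKO. The second TKO peak, of 232 bp and 70 reads, lay 11.2 kb from the HOXD13 edge. A list holds only peaks past the authors' threshold, so an empty stretch means that no peak passed it at an unknown sequencing depth.

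**Figure D1:**
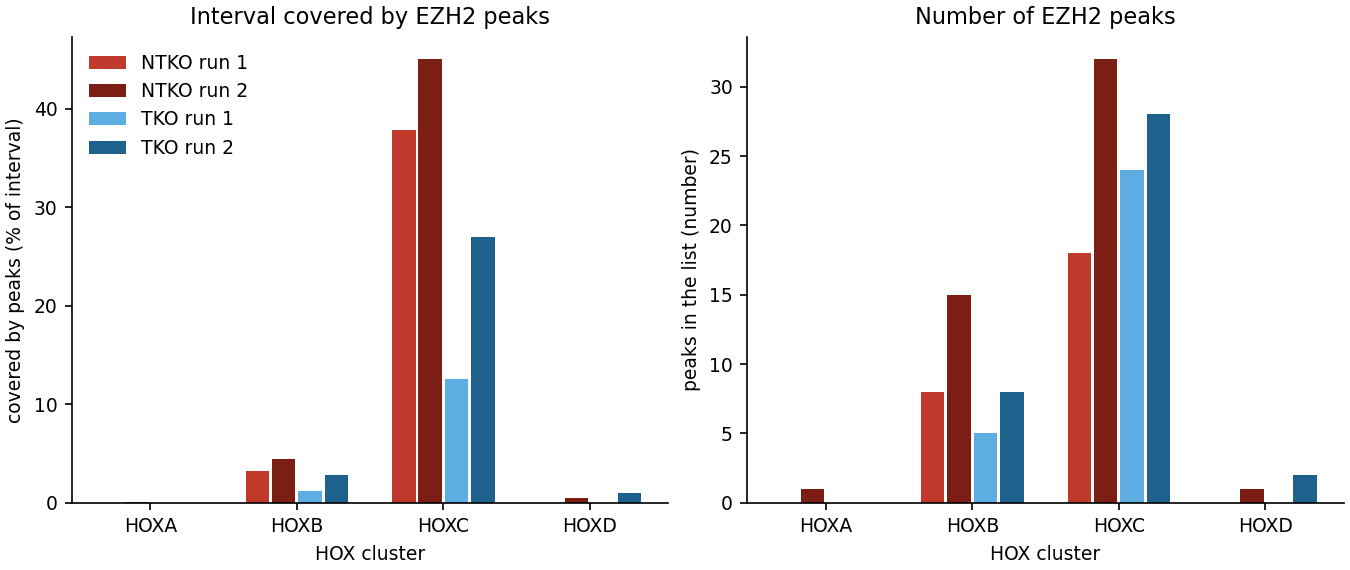
Share of each HOX interval covered by EZH2 peaks (left, percent of the interval) and number of peaks (right) in the 4 lists, one bar per list. HOXC bars reach 37.8% and 45.1% in NTKO and 12.6% and 26.9% in TKO, HOXB bars stay under 4.5% and HOXA and HOXD are near 0, while the HOXC peak numbers do not separate the lines.

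The EZH2 peaks at HOXC lay mostly within the interval, with few in the stretches beside it. No list had a peak in the 130 kb before the HOXC13 edge, and in the 130 kb after the HOXC4 edge peaks covered 1.22 and 1.64 kb in the NTKO lists and 0.927 and 2.71 kb in the TKO lists, run 1 first here and in every such pair below. The stretches of equal length on both sides of HOXA, HOXB and HOXD held no peak in any list. On the whole of chromosome 12, HOXC alone took 46.6% and 32.8% of the covered bases in NTKO and 50.6% and 32.3% in TKO. Within each run these shares were close for both lines, and lower in run 2 than in run 1.

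The comparison of interest is NTKO, with high MMSET, against TKO, with low MMSET. At HOXC, peaks covered 49.2 and 58.6 kb in NTKO, against 16.4 and 35.0 kb in TKO. The groups did not overlap: the lower NTKO value was 1.40 times the higher TKO value. NTKO run 1 came from a list of 2972 peaks and TKO run 2 from one of 5516, at unknown depth. The mean was 53.9 ± 6.65 kb in NTKO and 25.7 ± 13.2 kb in TKO (SD, n = 2 each), a difference of 28.2 kb. The exact permutation test gave a two-sided p = 0.333, the smallest that 2 samples against 2 can give (Benjamini-Hochberg adjusted p = 0.667 over the 4 clusters).

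HOXB showed the same order at a smaller scale. Peaks there covered 6.72 kb and 9.385 kb in NTKO and 2.48 kb and 5.92 kb in TKO. The groups did not overlap, with the lower NTKO value 1.13 times the higher TKO value, and the means were 8.05 ± 1.88 kb and 4.20 ± 2.43 kb (SD, n = 2 each; exact permutation p = 0.333, adjusted p = 0.667). On the log2 scale the NTKO to TKO difference in covered length was 1.59 in run 1 and 0.74 in run 2 at HOXC, and 1.44 and 0.66 at HOXB. The size of the difference thus varied more between the runs than between the clusters. The difference at HOXB was 2.13 kb without TKO run 1 and 2.52 kb without NTKO run 2, against 3.85 kb with all 4 lists.

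HOXA and HOXD gave no separation. The mean covered length was 0.081 kb in NTKO and 0 kb in TKO at HOXA, and 0.306 kb in NTKO and 0.589 kb in TKO at HOXD (exact permutation p = 1 for each). Over the 4 clusters together, covered length was 62.3 ± 9.08 kb in NTKO and 30.5 ± 16.5 kb in TKO (SD, n = 2 each; exact permutation p = 0.333), and the difference of 31.8 kb was 20.2 kb without TKO run 1.

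Covering more sequence in NTKO than in TKO was not confined to the HOX clusters, and the HOX values are to be read against that. Of 2776 windows of 100 kb with a peak in any list, both NTKO lists covered more than both TKO lists in 18.6%, and of the 256 windows with a peak in all 4 lists, in 42.6%. The 3 such windows with HOXB and HOXC peaks in all 4 lists all showed it. The window with the first part of HOXC ranked number 2 of 993 by covered length for NTKO run 1 (39.8 kb) and number 1 of 357 for TKO run 1 (14.1 kb). In the run 2 lists it ranked number 28 of 2286 for NTKO (45.7 kb) and number 23 of 1597 for TKO (28.1 kb). HOXC thus stood nearer the top in the shorter lists of each line. Read depth is unknown. A lower level of EZH2 in all cells, EZH2 in fewer cells and a difference in depth cannot be told apart in these bulk samples.

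Relative to the rest of its list, HOX coverage pointed the other way. The HOX intervals took 2.71% of all NTKO and 6.13% of all TKO covered bases of run 1, and 0.873% and 1.24% of those of run 2. Within each run the TKO share was the higher, because the covered length outside HOX was 6.95 times higher in NTKO in run 1 and 2.33 times higher in run 2, against 2.97 and 1.63 times for the HOX intervals. Across runs the shares overlapped, with 1.79 ± 1.30% in NTKO and 3.69 ± 3.45% in TKO (SD, n = 2 each; exact permutation p = 0.667). Without TKO run 1 the sign turned, with NTKO higher by 0.548 percentage points. Across the 4 lists the share fell as the number of peaks in the list rose, from 6.13% at 651 peaks to 0.873% at 10582. With each list reduced to its 651 highest peaks, an alternative chosen after seeing the data, the share was 4.43% in NTKO and 6.13% in TKO in run 1 and 2.30% and 2.43% in run 2, and the difference of the means went from -1.89 to -0.916 percentage points.

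**Figure D2:**
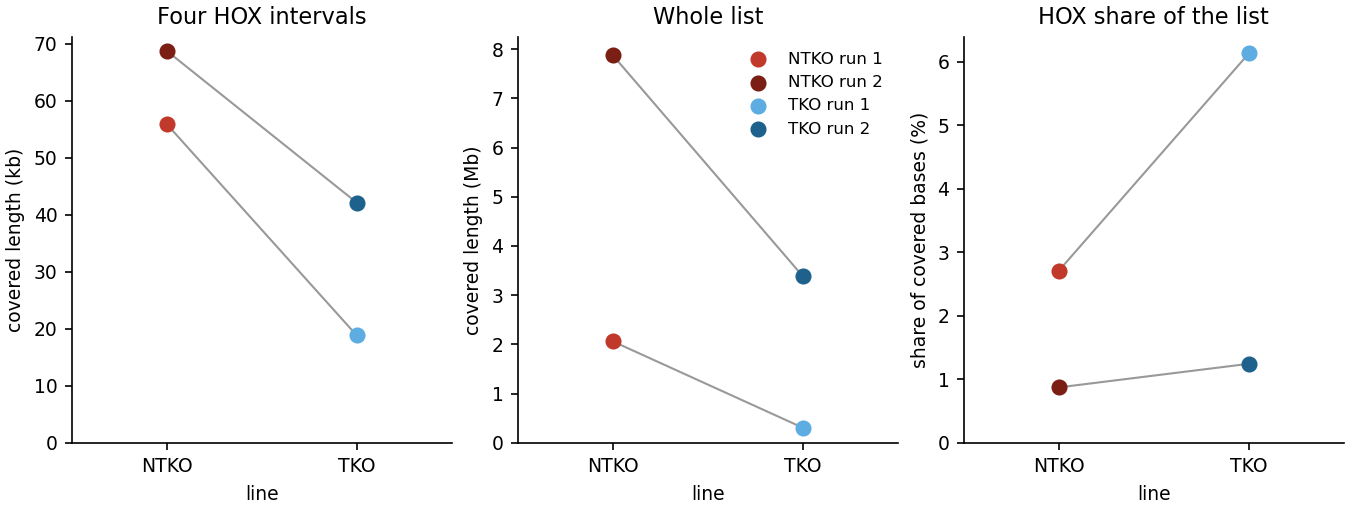
Covered length in the 4 HOX intervals (left, kb), covered length of the whole list (middle, Mb) and HOX share of all covered bases (right, percent) by line, one point per list with a grey line joining the lists of one run. Both lengths are lower in TKO within each run, from 55.9 to 18.8 kb and from 68.7 to 42.1 kb at HOX, whereas the share is higher, from 2.71% to 6.13% and from 0.873% to 1.24%.

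Peak number did not track covered length. HOXC held 18 and 32 NTKO peaks against 24 and 28 TKO peaks, so TKO had more peaks in run 1 and fewer in run 2. HOXB held 8 and 15 in NTKO and 5 and 8 in TKO. Over the 4 clusters the mean was 37.5 ± 16.3 peaks in NTKO and 33.5 ± 6.36 in TKO (SD, n = 2 each; exact permutation p = 1). The mean width of a HOXC peak was 2731 bp and 1829 bp in NTKO and 680.3 bp and 1250 bp in TKO, so that in TKO run 1 the same cluster was cut into more, shorter peaks than in NTKO run 1.

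The widest HOXC peak showed this most plainly. It measured 23768 bp in NTKO run 1, the widest of all 2972 peaks of that list, and 19119 bp in NTKO run 2, number 2 of its 10582. In TKO it measured 3124 bp in run 1, number 3 of 651, and 7636 bp in run 2, number 7 of 5516. The same peak was also the highest HOXC peak of its list, with 214 and 283 reads in NTKO and 109 and 221 reads in TKO. At HOXB the widest peak was again the highest, with 2241 bp and 120 reads, and 2635 bp and 151 reads, in NTKO, and 1136 bp and 61 reads, and 2092 bp and 150 reads, in TKO. The HOXB summits in run 2 thus differed by 1 read between the lines.

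The median height of all HOX peaks did not separate the lines. It was 58.5 and 70 reads in NTKO and 42 and 92.5 reads in TKO, so TKO run 2 was the highest and TKO run 1 the lowest (means 64.25 and 67.25 reads, n = 2 each, exact permutation p = 1). The medians over whole lists stood in the same order, at 52 and 63 reads in NTKO and 44 and 65 reads in TKO. A median over peaks depends on how a domain is split, since weak stretches between summits count as peaks only where they pass the threshold.

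Along HOXC, EZH2 lay in 3 parts: a posterior block, a sparse stretch and a broad central to anterior block. The first 10 kb from the HOXC13 edge, where no list had a peak, and the last, from 120 kb, were empty. The posterior block fell between 20 and 30 kb, and 60.8% and 69.5% of those 10 kb were covered in NTKO, against 0% in TKO run 1 and 12.01% in TKO run 2. From 30 to 50 kb coverage was low, at most 20.5% of any 10 kb in any list. From 50 kb the cluster filled up, and the 10 kb from 70 to 80 kb were covered to 100% in both NTKO lists, 65.3% in TKO run 1 and 98.8% in TKO run 2. Of the 11 HOXC bins with a peak in any list, 8 had more covered in both NTKO lists than in both TKO lists, against 16.3% of 5371 such 10 kb bins of the genome, and 0 showed the reverse. Of the 7 with a peak in all 4 lists 6 did, against 40.6% of 340, and at HOXB 4 of 5 did. Neighbouring bins share peaks and are not independent.

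**Figure D3:**
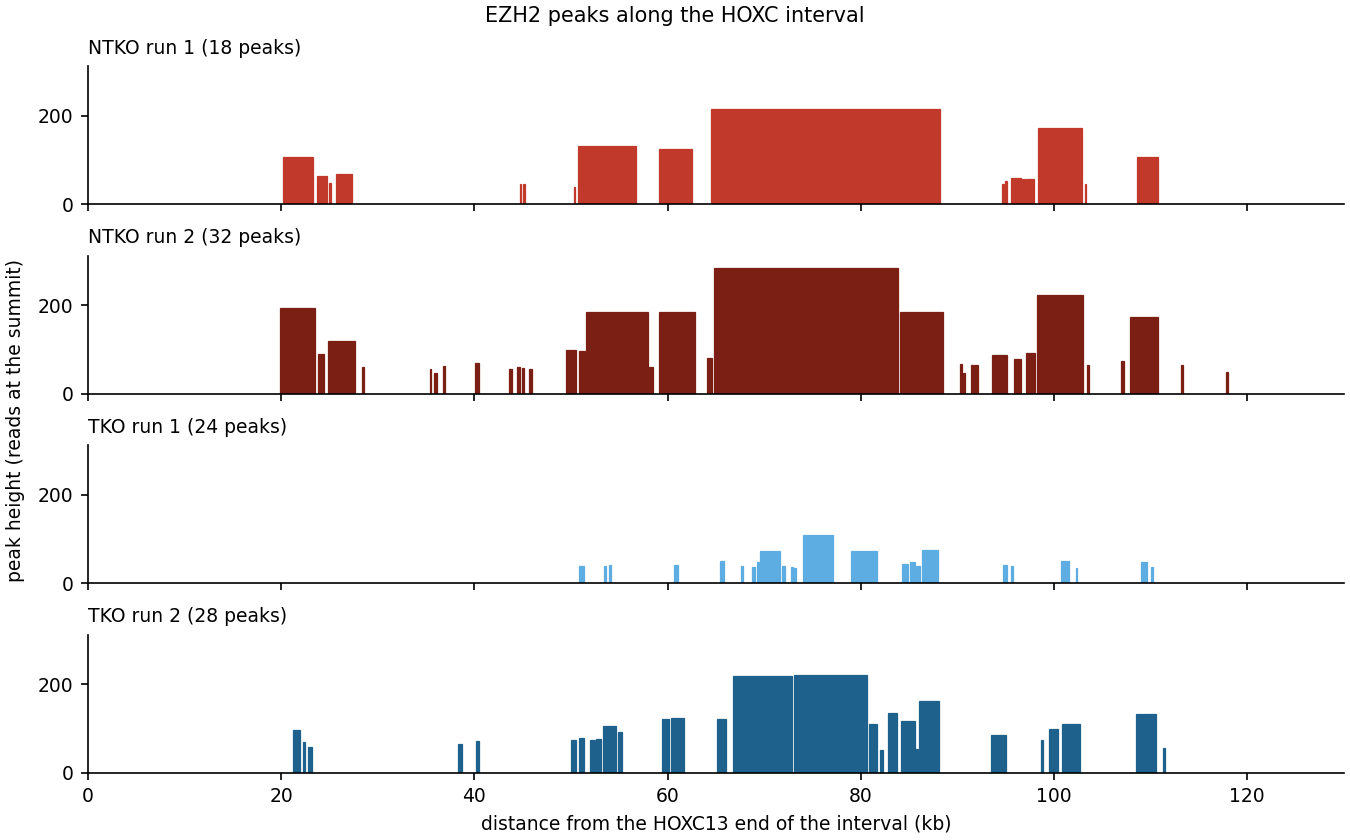
EZH2 peaks along the 130 kb HOXC interval in the 4 lists, each bar spanning one peak from start to end, with its height in reads at the summit; the horizontal axis is the distance from the HOXC13 edge in kb. The block from 64 to 89 kb is 1 peak for NTKO and 14 peaks for TKO in run 1, and the block from 20 to 28 kb is present in both NTKO lists, absent from TKO run 1 and reduced to 3 narrow peaks in TKO run 2.

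The posterior block, nearest HOXC13, held the 2 widest HOX regions with a peak in both NTKO lists and in neither TKO list. It comprised 3 regions between 19.8 and 27.6 kb (regions being unions of overlapping peaks from the 4 lists). The first, 3.62 kb long, had a height of 107 and 194 reads in NTKO, no peak in TKO run 1 and 96 reads in TKO run 2, and was covered over 3.13, 3.62, 0 and 1.20 kb. The next, 1.04 kb long with 63 and 89 reads in NTKO, and the last, 2.75 kb long with 69 and 118 reads, had no peak in either TKO list.

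Split at its midpoint, the HOXC interval was covered more on its anterior side, towards the lower paralogue groups, and more so in TKO. The anterior side held 66.4% and 61.9% of the covered HOXC bases in NTKO and 92.7% and 78.0% in TKO. The groups did not overlap. The posterior side was covered over 16.5 and 22.3 kb in NTKO and 1.19 and 7.69 kb in TKO, and the anterior side over 32.7 and 36.2 kb in NTKO and 15.2 and 27.3 kb in TKO. HOXB, split in the same way, gave the opposite order, also without overlap. Its anterior side held 95.8% and 96.1% of the covered bases in NTKO and 93.6% and 92.8% in TKO. The HOXB order rests on little sequence. The posterior side held 0.284 and 0.369 kb in NTKO and 0.16 and 0.428 kb in TKO, all in 1 region from 95.7 to 96.2 kb. No test was planned for these sides, and with 2 lists a line no exact test could pass 0.05.

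HOXB peaks kept to a shorter stretch, all between 95.7 and 135.2 kb from the HOXB13 edge. They lay mostly on the anterior side of the midpoint of the 210 kb interval. Of the 21 HOXB bins of 10 kb, 16 were empty in every list. The span from the first to the last peak was 39.4 and 39.3 kb in NTKO and 34.5 and 39.3 kb in TKO, so the extent was much the same in all lists while the covered length within it was not. At HOXC, by contrast, the span was 90.5 and 98.2 kb in NTKO and 59.4 and 90.2 kb in TKO.

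**Figure D4:**
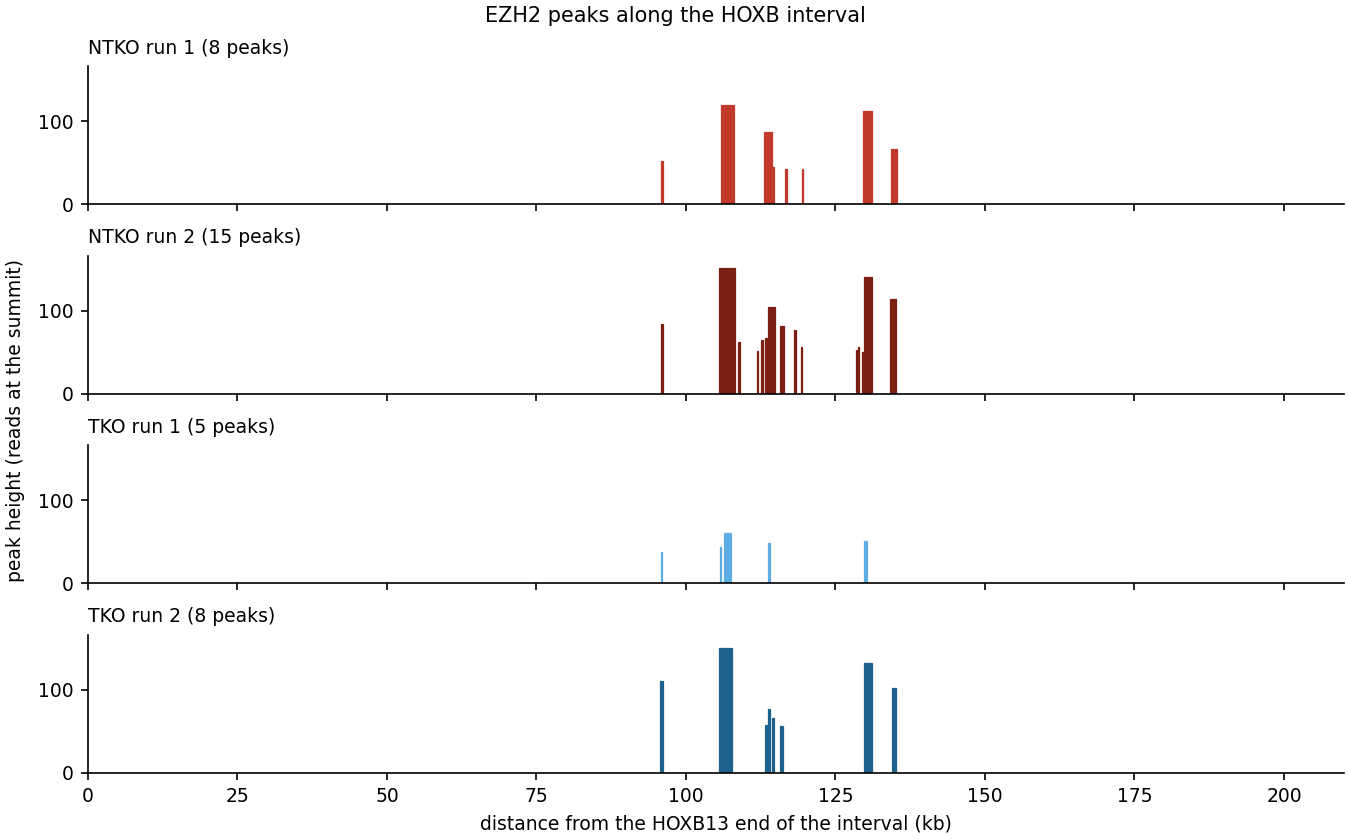
EZH2 peaks along the 210 kb HOXB interval in the 4 lists, drawn as for HOXC with the distance from the HOXB13 edge in kb on the horizontal axis and height in reads on the vertical axis. All peaks lie between 95.7 and 135.2 kb, 4 of the 16 merged regions have a peak in every list, and the tallest stands at 120 and 151 reads in NTKO and 61 and 150 reads in TKO.

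At HOXC and HOXB the peaks of TKO cells fell almost wholly within the sequence covered in NTKO cells. Of the HOXC bases covered in TKO, 99.1% in run 1 and 97.9% in run 2 were also covered in NTKO in the same run, whereas 33.0% and 58.5% of the NTKO bases were covered in TKO. At HOXB 93.5% and 99.0% of TKO bases were covered in NTKO, and 34.6% and 62.5% of NTKO bases in TKO. At HOXD 48.5% of the TKO run 2 bases were covered in NTKO run 2. The share of bases over whole lists was not computed, and in each run the NTKO list was the longer. Both NTKO lists covered 14.3 kb of HOXC and 1.08 kb of HOXB that neither TKO list covered, and the reverse was 0 kb at each cluster.

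Counted as peaks sharing at least 1 base, 35 of 38 TKO run 2 HOX peaks (92.1%) met an NTKO run 2 peak, against 76.3% of all TKO run 2 peaks. The 3 without a partner were 2 at HOXC and 1 at HOXD. In the other direction 19 of 49 NTKO run 2 HOX peaks (38.8%) met a TKO run 2 peak, against 29.3% of the whole list. In run 1, all 29 TKO HOX peaks met an NTKO peak (82.3% of the list did) and 12 of 26 NTKO HOX peaks met a TKO peak (13.4% of the list did). Wide peaks meet others more easily, and the part of width in these shares was not tested.

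HOX peaks of the shorter run 1 lists were largely found again in run 2. In TKO 28 of 29 were, against 83.6% of the list, and in NTKO 22 of 26 were, against 94.3% of the list. The 4 NTKO peaks not found again were 2 at HOXB and 2 at HOXC, between 110 and 286 bp wide and between 43 and 57 reads high.

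Merging the 4 lists gave 11858 regions, 52 of them at HOX: 33 at HOXC, 16 at HOXB, 2 at HOXD and 1 at HOXA. A peak in all 4 lists was found in 10 HOX regions (19.2%), 6 at HOXC and 4 at HOXB, against 2.75% of all regions. A peak in both NTKO lists and neither TKO list was found in 5 (9.62%, against 4.70% of all), all at HOXC, and the reverse in 0 (against 0.253% of all). The 3 widest of the 5 were the last 2 posterior regions above and one of 0.906 kb at 97.1 kb, with 57 and 91 reads. A further 3 regions had a peak in both NTKO lists and TKO run 2 (5.77%, against 8.57% of all), and 23 in NTKO run 2 alone (44.2%, against 57.7% of all).

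The 10 regions with a peak in all 4 lists allowed heights to be compared at matched sites. The largest, 24.5 kb long from 64.1 to 88.6 kb in HOXC, had a height of 214 and 283 reads in NTKO and 109 and 221 reads in TKO. It consisted of 1 and 3 peaks in NTKO and 14 and 9 in TKO, which covered 23.8 and 24.2 kb in NTKO and 12.9 and 20.4 kb in TKO. The core of HOXC was thus bound in every list, and continuously so in NTKO run 1.

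The largest mean ratio was at the HOXC region from 98.3 to 103.0 kb, with 171 and 222 reads in NTKO and 51 and 110 reads in TKO. Both NTKO values exceeded both TKO values, and the log2 ratio was 1.75 in run 1 and 1.01 in run 2. Among all 326 regions with a peak in all 4 lists it ranked second by this ratio (log2 difference 1.38 ± 0.836 SE, limma adjusted p = 0.944). The region from 50.8 to 57.9 kb ranked number 4, with 132 and 185 reads in NTKO against 41 and 105 reads in TKO (log2 difference 1.25 ± 0.836 SE, limma adjusted p = 0.944). The region from 59.1 to 62.8 kb had 124 and 185 reads in NTKO and 42 and 124 reads in TKO, so NTKO run 1 and TKO run 2 were equal there.

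The other 3 HOXC regions differed less. That from 107.9 to 110.8 kb had 107 and 173 reads in NTKO and 49 and 132 reads in TKO. That from 93.4 to 95.2 kb had 52 and 88 reads in NTKO and 41 and 85 reads in TKO, and its log2 ratios were 0.34 and 0.05. The 4 HOXB regions ranked from number 135 to number 299 of 326, and 3 of them were higher in NTKO in both runs. That from 113.1 to 114.9 kb had 87 and 104 reads in NTKO and 49 and 77 reads in TKO, without overlap. That from 129.7 to 131.2 kb had 112 and 141 reads in NTKO and 51 and 132 reads in TKO, and that from 105.6 to 108.2 kb, which holds the widest peaks given above, had log2 ratios of 0.98 and 0.01. HOXB heights in run 2 thus lay close together at both of these. At the one from 95.7 to 96.2 kb, with 52 and 84 reads in NTKO and 38 and 110 reads in TKO, the log2 ratio was 0.45 in run 1 and -0.39 in run 2. This was the single HOX region of the 10 where the runs gave opposite signs.

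**Figure D5:**
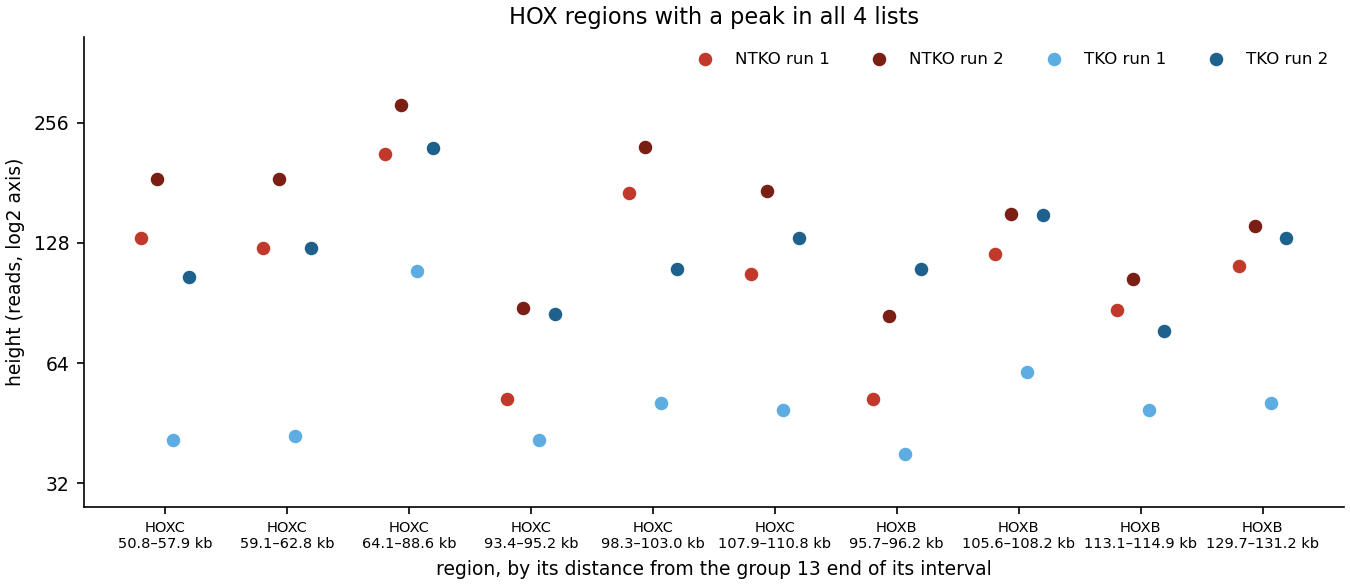
Height in reads (log2 axis) of the 10 HOX regions with a peak in all 4 lists, one point per list, ordered by cluster and by distance from the group 13 edge. TKO run 1 is lowest at every region, and both NTKO points lie above both TKO points at 3 of the 10.

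Over all 10, NTKO was higher in both runs at 9 (all 6 at HOXC and 3 of 4 at HOXB), against 71.2% of the 326 regions. Both NTKO heights exceeded both TKO heights at 3 (2 at HOXC and 1 at HOXB), against 12% of the 326. The limma test on log2 height called 0 of 326 regions at an adjusted p under 0.05 (0%), and 0 had an unadjusted p under 0.05. The median log2 difference was 0.65 over the 10 HOX regions and 0.55 over all 326, and the HOX regions were spread from rank 2 to rank 299. With heights centred on the median of each sample, the HOX median was 0.00 (5 of 10 below 0) and the median of all was -0.09.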

How the data were processed

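EZH2 ChIP-seq had been performed on NTKO and TKO cells. Per the methods and labels, the authors ran CASAVA 1.8 and BWA on hg18, left out reads stacked at one position, normalized each sample to its input and called peaks per sample with ChIPseeqer (at least 2-fold over input, -log10 p at least 15). Each deposited list gives start, end, a log10 p-value score (at least 15 below 0), the average signal, the height (signal at the summit, in reads), and the summit place as a percent of the peak. Read totals were not used here, so depth is unknown and heights were not scaled between samples. Lists held 651 to 10582 peaks covering 0.307 to 7.87 Mb.

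Covered length counts both end positions of a peak (end minus start plus 1), and peak widths are given as deposited (end minus start). Covered length, peak number and median height were compared between lines with two-sided exact permutation tests over samples. The study describes the runs as independent replicates; the labels give only a run number. Peaks of the 4 lists were merged when sharing 1 base, and log2 heights of the regions found in all 4 lists were fitted with limma 3.58.1 (R 4.3.3). Interval arithmetic and the fit were tested on simulated data. Highest, widest and 4-list HOX peaks were named, and promoters of the outermost members of the most and least covered cluster. Alternatives were a stricter p score, leaving out each list, a run block, extended intervals and others. The members, intervals and lists were chosen with earlier results of these data known. Sequences came from RefSeq (GRCh38.p14; 20 of 38 members matched) and the study's primer list.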

Additional observations from a re-analysis of the deposited data

How the results depend on the processing

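More covered sequence in NTKO than in TKO at HOXB, at HOXC and over the 4 clusters kept its direction with a -log10 p of at least 20. It also did with each list reduced to its 651 highest peaks, chosen after seeing the data (HOXC difference 23.7 kb, HOXB 1.83 kb). Equal numbers did not level the lists, since the kept peaks covered 1.15 and 2.13 Mb in NTKO and 0.307 and 1.23 Mb in TKO. The remaining alternatives say little about direction. Both NTKO values exceeded both TKO values in each case, so leaving out 1 list could not turn the sign. The run as a block keeps the same difference by construction, and extending the intervals by 10 kb left the differences unchanged. Leaving out 1 list gave 18.8 to 37.5 kb at HOXC, 2.13 to 5.57 kb at HOXB and 20.2 to 43.5 kb over the 4 clusters.

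Of the rest, 4 differences changed sign in some settings, and the cause was not tested: the HOX share without TKO run 1, HOXD without NTKO run 1 or TKO run 2, peak number without NTKO run 2 or TKO run 1, and median height without NTKO run 1 or TKO run 2. Leaving out 1 list gave a NTKO minus TKO difference of -0.872 to 0.306 kb at HOXD, -7.5 to 15.5 in peak number, -4.34 to 0.548 percentage points in HOX share and -28.25 to 22.25 reads in median height. The median height difference was 14.75 reads with a -log10 p of at least 20, 0.468 with the average level in place of the summit, and 63.5 reads with the 651 highest peaks, which also gave -11.5 peaks in number and -0.916 percentage points in HOX share.

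Where the overlap had to reach 50% of each peak, 11 TKO and 11 NTKO run 2 HOX peaks were shared and 4 TKO run 1 peaks were found again, and the cause was not tested. In run 1, 12 NTKO HOX peaks were shared. With a -log10 p of at least 20, which left 13 TKO run 1 HOX peaks, 13 were found again.

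The run numbers are shared by the lines but the labels tie the samples no further. Over 326 regions the run 2 minus run 1 differences of both lines correlated (r = 0.759). With the run as a replicate block the HOXC difference of 28.2 kb had an exact p = 0.5, the smallest possible with 2 pairs, and limma called 0 regions, with 77 at an unadjusted p under 0.05. Block and centring together, chosen after seeing the data, called 47 of 326 regions, 8 higher and 39 lower in NTKO. Of these 3 were at HOX: HOXC at 50.8 to 57.9 kb and at 98.3 to 103.0 kb, higher in NTKO (limma adjusted p = 0.0261 and 0.0132), and HOXB at 95.7 to 96.2 kb, lower in NTKO (limma adjusted p = 0.0245). Unknown depth limits all heights and lengths, and 2 lists a line cannot reach an exact p under 0.333.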
